A study of Sus scrofa domesticus with 4 samples.

Results

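The genes described here encode the class II antigen presentation machinery of the pig, in which class II molecules of the major histocompatibility complex are called swine leukocyte antigens (SLA). They are SLA-DRA and SLA-DRB1, SLA-DQA1 and SLA-DQB1, SLA-DMA and SLA-DMB, SLA-DOA, and CD74. The probes were chosen by gene symbol: a probe was taken where its RefSeq accession matched one of these symbols. All 8 genes were on the array, out of 3029 genes that could be named, and they carried 30 probes. All 30 probes passed the filter on dim spots, and 28 of them were well above background in all 8 readings (4 arrays, each read in both dyes). By mean brightness the 30 probes lay between the percentiles 44.0 and 96.5 of the probes tested. In the pig reference assembly Sscrofa11.1, 7 of the 8 genes lie on 1 chromosome and CD74 lies on another.

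Class II molecules are pairs of an alpha and a beta chain that carry peptides from engulfed proteins to the cell surface, where CD4 T cells inspect them. In the endoplasmic reticulum the pair binds the invariant chain, CD74, which blocks the peptide groove and directs the complex to endosomes. There proteases trim CD74 to a fragment, the DM pair exchanges that fragment for peptide, and DO, a pair that binds DM, restrains the exchange. Dendritic cells, macrophages and B cells carry these genes constitutively, and interferon gamma induces them in many other cells. In early pregnancy the pig conceptus secretes interferon gamma into the uterus.

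The study addressed the effect of orexin A (OXA), a hypothalamic peptide that stimulates feeding and wakefulness, on gene expression in the endometrium, the lining of the uterus. Slices of endometrium came from 4 mature gilts, Large White x Polish Landrace, 7 to 8 months old and on days 15 to 16 of gestation. After 2 h in culture, slices were kept for a further 24 h with OXA or with no addition. The sample labels give an OXA concentration of 10 nM, whereas the text on the design of the series gives 10 µM. The compared groups are thus pregnant endometrium with OXA and pregnant endometrium without it, from the same breed, stage and culture. The material is a whole tissue slice kept outside the animal. Each of 4 Agilent 2-colour oligonucleotide arrays held RNA from OXA-treated tissue in one dye and RNA from untreated tissue in the other, so n = 4 arrays throughout. The sources used here do not say whether an array paired RNAs of 1 gilt.

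The dye that carried OXA is described in conflicting ways. The labels of the single samples have arrays 1 and 3 carry OXA in Cy5 and arrays 2 and 4 carry it in Cy3. By contrast, the protocol for labelling, written once for all samples, assigns Cy5 to OXA on all 4 arrays. The labels of the single samples set the direction here, and all values are also given as Cy5 over Cy3 as scanned, which needs neither statement. Against the scanner's Cy5 to Cy3 ratio, the authors' deposited log2 ratios had positive slopes on arrays 1 and 3. On arrays 2 and 4 the slopes were negative, so the deposited values follow the dye swap of the labels and not the protocol's wording. Which RNA was in fact labelled with which dye was not tested. Under the labels, the fit separates an OXA coefficient from a Cy5 over Cy3 coefficient shared by all arrays. If OXA had been in Cy5 on every array, OXA and dye could not be told apart.

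Over the whole series, 26927 of 43603 probes were tested with limma. Well above background were 62.4% to 74.5% of probes in Cy5, 52.1% to 56.7% in Cy3 on arrays 2 to 4, and 31.8% in Cy3 on array 1. The file header of array 1 names another slide and a scan 71 days apart from the other arrays, although its deposited name carries their slide. Saturated spots numbered 0, and having 4 arrays bounds the precision. No probe passed an adjusted p of 0.05 for OXA (0% of probes) or for Cy5 over Cy3 (0% of probes), with 500 and 1042 probes at an unadjusted p under 0.05. The lowest adjusted p values by limma were 0.763 and 0.932. With OXA over control as the direction, the arrays correlated across probes from -0.29 (arrays 3 and 4) to 0.42 (arrays 1 and 2), and probes are not independent replicates. Markers of the endometrium were measured: all 6 measured epithelial genes, such as the keratin KRT8 and the adhesion molecule EPCAM, and all 3 measured stromal genes, such as the matrix proteoglycans DCN and LUM, were well above background in all 8 readings.

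The class II genes split by array and by dye. Taking for each gene its brightest probe, the ratio of OXA to control was above 0 for 8 of 8 genes on array 3, for 4 of 8 on array 1, and for 0 of 8 on arrays 2 and 4. Read as scanned, Cy5 exceeded Cy3 for all 8 genes on arrays 2, 3 and 4, whichever RNA Cy5 held. The median log2 ratio of OXA over control across the 8 genes was -0.04, -0.69, 0.35 and -0.89 on arrays 1 to 4. The fitted OXA coefficient was below 0 for all 8 genes, with a median of -0.31, against 0.02 over all probes tested. The median turned to 0.02 when arrays were centred on their median without loess (0.14 for the median over all probes), and to 0.45 when OXA was read as Cy5 on every array. The median Cy5 over Cy3 coefficient was 0.45, against 0.03 over all probes. None of the 8 genes passed an adjusted p of 0.05 for either coefficient.

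**Figure D1:**
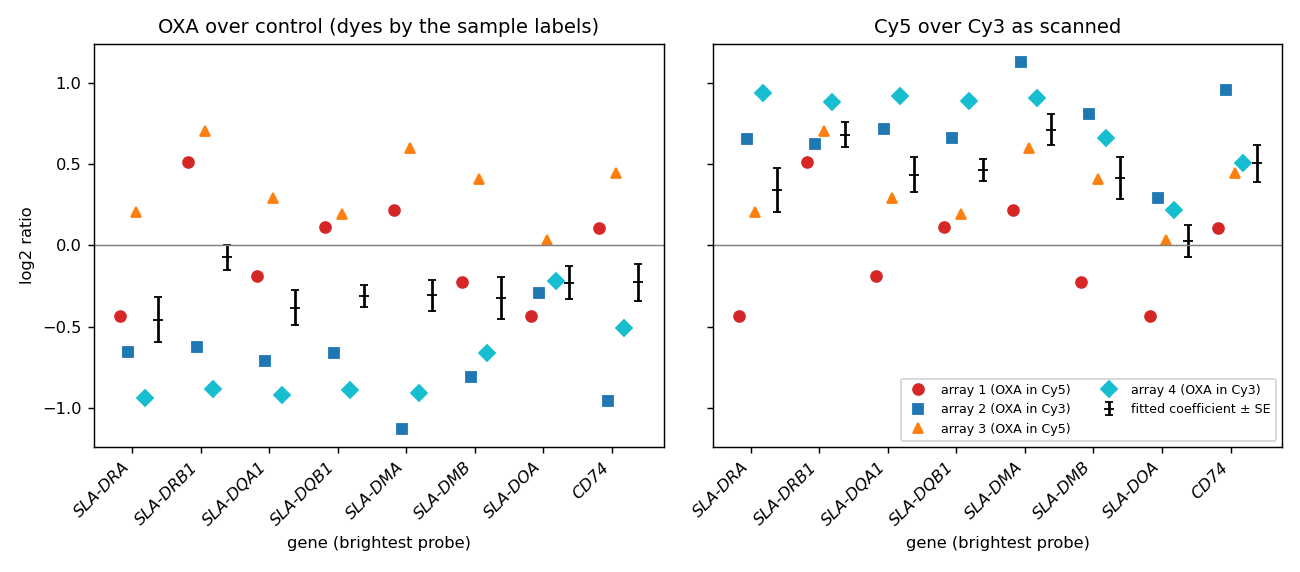
Log2 ratios of the brightest probe of each class II gene on arrays 1 to 4 (coloured symbols), as OXA over control by the sample labels (left) and as Cy5 over Cy3 (right), with the fitted coefficient and its standard error in black. On the left, arrays 2 and 4 lie below 0 for all 8 genes and array 3 above 0; on the right, arrays 2, 3 and 4 lie above 0 for all 8, and under the labelling protocol's wording the right panel would be OXA over control.

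In tissue slices, fewer cells of a type and less RNA per cell cannot be told apart, so each ratio below is of RNA from a slice. SDs are over the 4 arrays and hold the dye effect, while SEs come from the fit with the dye coefficient.

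DR is a classical class II molecule that presents peptide. SLA-DRA, its alpha chain, had log2 ratios of OXA over control of -0.43, -0.66, 0.21 and -0.94 on arrays 1 to 4. Array 3 alone lay above 0, and arrays of both dye orientations lay below it. Its normalised log2 intensities were 14.08, 14.75, 15.24 and 14.48 in the OXA RNAs and 14.51, 15.41, 15.03 and 15.42 in the control RNAs, and these groups overlap. The OXA coefficient was -0.46 (SE 0.14, SD 0.49, n = 4), the lowest of the 8 genes and a fold of 0.729, with an unadjusted p of 0.0298 and an adjusted p of 0.763 in limma. The Cy5 over Cy3 coefficient of SLA-DRA was 0.34 (SE 0.14), with an adjusted p of 0.932 in limma. All 7 SLA-DRA probes had an OXA coefficient below 0, from -0.46 to -0.24, but on array 1 they ran over a span of 1.16, with 3 of 7 above control. On arrays 2 and 4 their spans were 0.34 and 0.30, and all 7 lay below control.

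SLA-DRB1, the polymorphic beta chain of DR, behaved otherwise on array 1. Its log2 ratios of OXA over control were 0.52, -0.63, 0.71 and -0.88, so arrays with OXA in Cy5 lay above 0 and arrays with OXA in Cy3 below it. The mean ratio was 0.61 where OXA was in Cy5 and -0.76 where it was in Cy3, similar in size and opposite in sign. The OXA coefficient was therefore close to 0, at -0.07 (SE 0.08, SD 0.80, n = 4; unadjusted p = 0.405, adjusted p = 0.763 in limma). The Cy5 over Cy3 coefficient was 0.68 (SE 0.08), a fold of 1.61, with the lowest unadjusted p of the 8 genes for this coefficient, 0.00105, and an adjusted p of 0.932 in limma. As Cy5 over Cy3 its 4 values, 0.52, 0.63, 0.71 and 0.88, had an SD of 0.15, the smallest among the 8 genes. The normalised log2 intensities of SLA-DRB1 were 13.31, 13.14, 13.86 and 13.50 with OXA and 12.80, 13.77, 13.16 and 14.38 without it. The control values ran wider (SD 0.70) than the OXA values (SD 0.31), and the groups overlap. Its 4 probes had OXA coefficients from -0.32 to -0.07 and Cy5 over Cy3 coefficients from 0.52 to 0.77.

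The chains of a pair are made together, and for DR and DQ their ratios were close on arrays 2 and 4. SLA-DRA and SLA-DRB1 differed by 0.95 on array 1, 0.03 on array 2, 0.50 on array 3 and 0.05 on array 4 (absolute differences of log2 ratios). For the DQ chains these gaps were 0.30, 0.05, 0.10 and 0.03, and for the DM chains 0.44, 0.32, 0.19 and 0.25. Array 1, the one with its own slide and the fewest probes above background in Cy3, gave the widest gap for each of the 3 pairs.

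The DQ pair is another classical class II molecule that presents peptide. SLA-DQA1, the alpha chain, had log2 ratios of OXA over control of -0.19, -0.71, 0.29 and -0.92 on arrays 1 to 4, with array 3 alone above 0. Its coefficient was -0.38 (SE 0.11, SD 0.54, n = 4), a fold of 0.767, with an unadjusted p of 0.0247 and an adjusted p of 0.763 in limma. In normalised log2 intensity SLA-DQA1 was 13.70, 14.48, 14.81 and 14.33 with OXA and 13.89, 15.20, 14.52 and 15.25 without it, lowest on array 1 in both RNAs. The Cy5 over Cy3 coefficient of SLA-DQA1 was 0.43, with an adjusted p of 0.932 in limma. All 7 SLA-DQA1 probes had OXA coefficients below 0, from -0.44 to -0.15, and Cy5 over Cy3 coefficients of 0.43 to 0.66. SLA-DQB1, the beta chain, had ratios of 0.12, -0.66, 0.20 and -0.89, so both arrays with OXA in Cy5 lay slightly above 0. Its OXA coefficient was -0.31 (SE 0.07, SD 0.55, n = 4) with an unadjusted p of 0.0111, the lowest of the 8 genes for OXA, and an adjusted p of 0.763 in limma. Its Cy5 over Cy3 coefficient was larger, 0.47. The normalised log2 intensities of SLA-DQB1 were 14.35, 14.65, 14.98 and 14.51 with OXA and 14.24, 15.31, 14.79 and 15.40 without it, again with overlap. Before normalisation, the median Cy5 intensity of this probe was 29283, 84403, 75082 and 68960.5 on arrays 1 to 4, and its Cy3 intensity was 12647, 14776, 12408 and 12322.5. The Cy3 readings of SLA-DQB1 thus stayed within a narrow range while its Cy5 reading on array 1 was less than those on the other arrays.

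**Figure D2:**
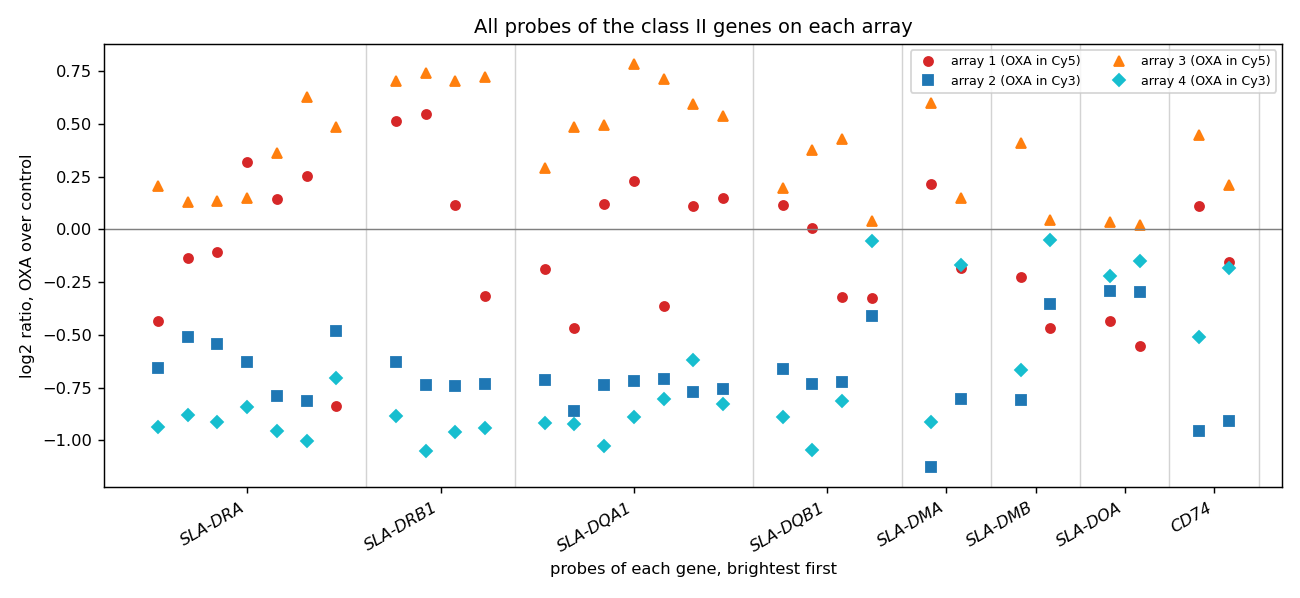
Log2 ratio of OXA over control (sample labels) of all 30 probes of the 8 class II genes on arrays 1 to 4, ordered by gene and within a gene from the brightest probe on the left. Array 3 lies above 0 for all 30 probes, arrays 2 and 4 below 0 for all 30, and array 1 above 0 for 14 of 30; as Cy5 over Cy3 all 30 lie above 0 on arrays 2, 3 and 4.

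DM is not a presenting molecule but the editor that exchanges peptides. SLA-DMA, its alpha chain, had the largest dye split: OXA over control was 0.22, -1.13, 0.60 and -0.91 on arrays 1 to 4. The mean was 0.41 with OXA in Cy5 and -1.02 with OXA in Cy3. The OXA coefficient of SLA-DMA was -0.31 (SE 0.10, SD 0.84, n = 4; unadjusted p = 0.0336, adjusted p = 0.763 in limma). Its Cy5 over Cy3 coefficient, 0.71, was the largest of the 8 genes, a fold of 1.64, with an adjusted p of 0.932 in limma. Normalised log2 intensities of SLA-DMA were 12.19, 12.29, 13.34 and 12.68 with OXA and 11.97, 13.42, 12.74 and 13.59 without it, so the highest OXA value exceeded the lower control values. The dimmer second probe of SLA-DMA gave 0.24 for Cy5 over Cy3 and -0.25 for OXA. SLA-DMB, the beta chain, had ratios of -0.23, -0.81, 0.41 and -0.66, with an OXA coefficient of -0.32 (SE 0.13, SD 0.55, n = 4; unadjusted p = 0.0675, adjusted p = 0.763 in limma) and a Cy5 over Cy3 coefficient of 0.41. For SLA-DMB the normalised log2 intensities were 12.13, 12.23, 12.93 and 12.57 with OXA and 12.35, 13.04, 12.52 and 13.24 without it. Its second probe, dimmer and well above background in 7 of 8 readings, gave -0.21 for OXA and -0.0049 for Cy5 over Cy3. As Cy5 over Cy3 that probe read -0.47, 0.35, 0.05 and 0.05 on arrays 1 to 4, with the signs of the first probe and smaller ratios on arrays 2 to 4.

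SLA-DOA, the alpha chain of DO, the restrainer of DM, was the gene least split by dye with the background correction used here. Its log2 ratios of OXA over control were -0.44, -0.29, 0.03 and -0.22, with means of -0.20 and -0.26 where OXA was in Cy5 and in Cy3. The OXA coefficient was -0.23 (SE 0.10, SD 0.20, n = 4; unadjusted p = 0.0864, adjusted p = 0.763 in limma). The Cy5 over Cy3 coefficient was 0.03, with an adjusted p of 0.953 in limma, and without array 3 it was -0.09. Both SLA-DOA probes had nearly equal values on each array, within 0.12. SLA-DOA was also the gene whose ratio moved most with background correction. Its OXA coefficient was -0.54 without background correction and -0.71 in the log ratio of Agilent's software. None of the 8 genes passed an adjusted p of 0.05 in that log ratio. Against 0.31 for SLA-DMB in each of these settings, the Cy5 over Cy3 coefficient of SLA-DOA was 0.32 and 0.39. Its normalised log2 intensities were 10.66, 10.32, 10.78 and 11.02 with OXA and 11.09, 10.61, 10.75 and 11.24 without it. Scanned Cy3 intensities of the SLA-DOA probe were 958, 322, 574 and 635 on arrays 1 to 4.

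CD74, the invariant chain, had log2 ratios of OXA over control of 0.11, -0.96, 0.45 and -0.51. Arrays with OXA in Cy5 lay above 0 and those with OXA in Cy3 below it. The OXA coefficient of CD74 was -0.23 (SE 0.11, SD 0.63, n = 4; unadjusted p = 0.117, adjusted p = 0.763 in limma), and the Cy5 over Cy3 coefficient was 0.51 (SE 0.11), with an adjusted p of 0.932 in limma. Its second probe gave -0.26 for OXA and 0.29 for Cy5 over Cy3. CD74 had normalised log2 intensities of 11.92, 12.05, 12.56 and 12.25 with OXA and 11.81, 13.01, 12.12 and 12.75 without it.

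**Figure D3:**
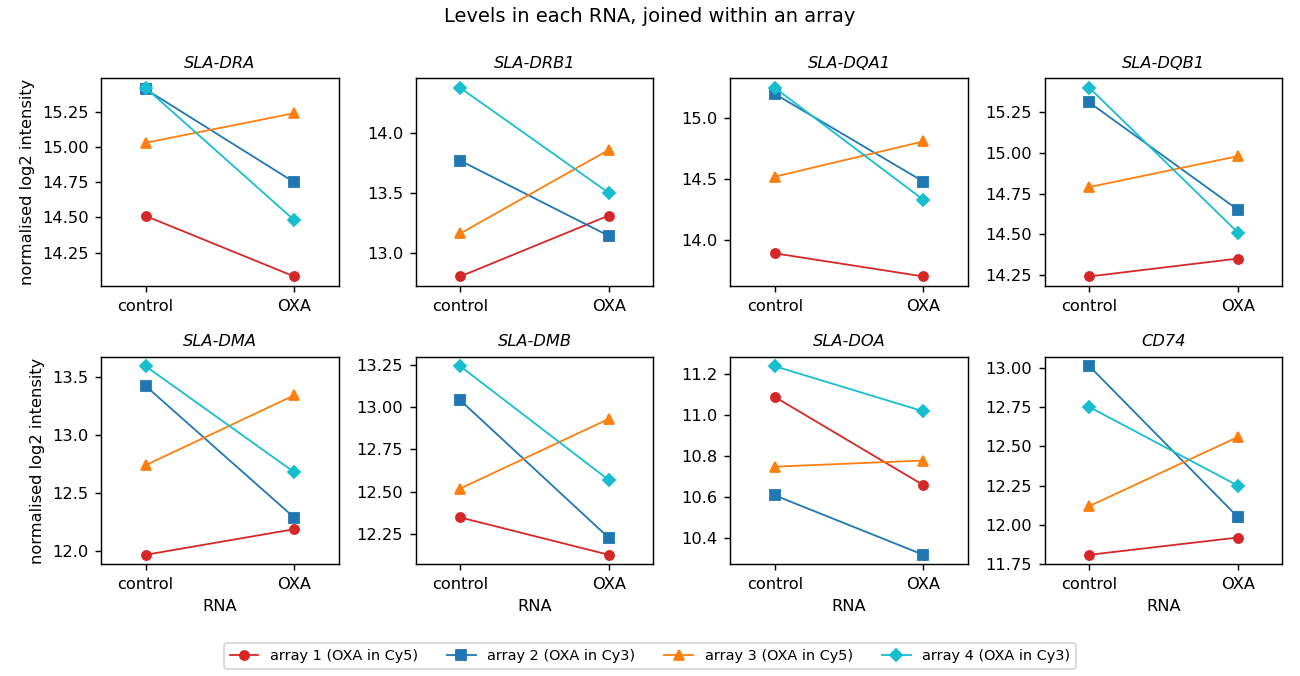
Normalised log2 intensity of the brightest probe of each class II gene in the control and the OXA RNA of each array, joined by a line within an array. Lines of arrays 2 and 4 slope down from control to OXA in all 8 panels and lines of array 3 slope up in all 8, while array 1 goes either way; the control and OXA values overlap for each gene, and each panel has its own axis.

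A looser call required an unadjusted p under 0.05 and a fold of 1.2 or more. It took 4 of the 8 genes as lower with OXA, SLA-DRA, SLA-DQA1, SLA-DQB1 and SLA-DMA, against 1.87% of named genes taken by their brightest probe. It took 9 of the 30 probes, against 0.672% of all probes tested. It took no member probe as higher, against 0.624%. The count of genes called lower was 0 of 8 without array 1, without array 4, with no dye coefficient and with median centring. Over all probes, these settings took 132, 406, 114 and 4 as lower, in that order, against 181 in the main fit. The count was 1 of 8 in Agilent's log ratio, where 569 of all probes were lower. It was 6 of 8 without array 3, where 1663 of all probes were lower. Under the protocol's assignment of dyes, the looser call took 0 of 8 genes as lower and 4 of 8 as higher. Of all probes, 105 were then lower and 574 higher, and OXA and dye cannot be told apart in that reading. Each setting tested 26927 to 26987 probes. For Cy5 over Cy3 higher, the looser call took 6 of 8 genes, against 130 of 2407 named genes. It took 19 of 30 probes, against 2.29% of all probes. Probes of 1 gene share their RNA and 7 of the genes neighbour each other, so these counts are not of independent measurements.

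All 30 member probes had an OXA coefficient below 0, against 43% of all probes, but with median centring 11 of 30 did. For Cy5 over Cy3, 28 of 30 had a coefficient above 0, against 61.6%. On arrays 2, 3 and 4 together, Cy5 exceeded Cy3 for 30 of 30 member probes, against 18.9% of all probes. On all 4 arrays it did so for 14 of 30 probes and 4 of 8 genes (SLA-DRB1, SLA-DQB1, SLA-DMA and CD74), against 10.3% of all probes, 9.54% of the 2693 brightest probes, and 13.2% of named genes. No member probe was below control on all 4 arrays, against 4.26%, or above control on all 4, against 7.64%. Array by array, the member probes above control were 14, 0, 30 and 0 of 30 on arrays 1 to 4, against 58.3%, 46.5%, 61.5% and 49% of all probes. In normalised intensity, no member gene had all OXA readings below all control readings, as 0.126% of probes did, or all Cy5 readings above all Cy3 readings, as 0.81% did.

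On the 3 arrays of the shared slide alone, Cy5 over Cy3 coefficients of the 8 genes ran from 0.15 (SLA-DOA) to 0.81 (SLA-DMA), with a median of 0.56, and OXA coefficients ran from -0.30 (SLA-DRA) to -0.03 (SLA-DRB1), with a median of -0.19. None of them passed an adjusted p of 0.05 there. Among these arrays, array 3 alone has OXA in Cy5, so both coefficients rest on that single array for this orientation. Array 1 is alone on its slide and gives no coefficient of its own.

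Around the members, the genes listed for class II processing had a lower median Cy5 over Cy3 coefficient, although single genes came near the class II median. Class II processing in endosomes was represented by 9 measured genes of 17 listed. Their median OXA coefficient was -0.10 and their median Cy5 over Cy3 coefficient 0.14. Of the 9 genes, 2 were higher in Cy5 on 4 of 4 arrays, against 13.2% of named genes, and 0 passed the looser call in either direction for OXA. SLA-DOB, the partner chain of SLA-DOA, was well above background in 5 of 8 readings, with 0.28 on array 1 and -0.0011, 0.0053 and 0.0041 on arrays 2 to 4, and so gives little measure of its ratio. CST3 (cystatin C, an inhibitor of cysteine cathepsins) had a Cy5 over Cy3 coefficient of 0.43, near the class II median of 0.45. The lowest such coefficient of the list was -0.01. The OXA coefficient of CST3 was -0.32, with 0.72, -0.49, -0.48 and -1.01 on arrays 1 to 4. The cathepsin CTSZ was -0.12, the lysosomal membrane protein LAMP1 was -0.15, and IFI30, the lysosomal thiol reductase that opens disulfide bonds of antigens, was 0.13. Of 12 genes listed for transcription control of class II, only NFYB, a subunit of the factor that binds the Y box of class II promoters, was measured, at 0.13.

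Interferon gamma signalling had 9 measured genes of 14 listed, with a median OXA coefficient of -0.24 and a median Cy5 over Cy3 coefficient of 0.01. IFNGR1, the ligand-binding chain of the receptor, was below control on 4 of 4 arrays (-0.81, -0.08, -0.40 and -0.46), with a coefficient of -0.44, an unadjusted p of 0.0195 and an adjusted p of 0.763 in limma. All 4 IFNGR1 probes lay below 0, from -0.54 to -0.17. The signalling chain IFNGR2 was -0.42 with -1.20 on array 1, and the kinase JAK1 was -0.24, both below control on 4 of 4 arrays, but 1 of 5 JAK1 probes alone lay below 0. IFNG itself was well above background in 4 of 8 readings, and its ratios of OXA over control, 0.24, -0.05, 0.0022 and -0.0091, are those of a dim probe. None of the 9 genes passed an adjusted p of 0.05 in limma.

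Costimulatory and class II binding receptors had 6 measured genes of 11, with a median OXA coefficient of -0.01. CD86 was -0.14, CD40 0.12 (-0.09 at its other probe), the inhibitory ligand CD274 -0.04, and LAG3, an inhibitory receptor on T cells that binds class II, 0.02. Class I genes and their peptide loading, which present peptides from inside the cell to CD8 T cells, had 16 measured genes of 22, with medians of -0.11 for OXA and 0.22 for Cy5 over Cy3. Cy5 exceeded Cy3 on 4 of 4 arrays for 7 of these 16, against 13.2% of named genes. B2M, the light chain of class I, had 0.34, -0.92, 0.14 and -0.88 for OXA over control, above 0 on arrays 1 and 3 and below it on arrays 2 and 4 as for CD74, with an OXA coefficient of -0.33 (unadjusted p = 0.00699, adjusted p = 0.763 in limma). The class I heavy chains SLA-3 and SLA-5 were -0.33 and -0.26, and the proteasome activator subunit PSME2 was 0.18. Interferon-stimulated genes had 19 measured of 29, with a median of -0.04 for OXA and 0.10 for Cy5 over Cy3. ISG15, a ubiquitin-like modifier, was -0.52, its protease USP18 -0.16, the factor IRF7 -0.31, and the chemokine CXCL10 0.40. No gene of these 3 lists passed an adjusted p of 0.05 in limma.

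**Figure D4:**
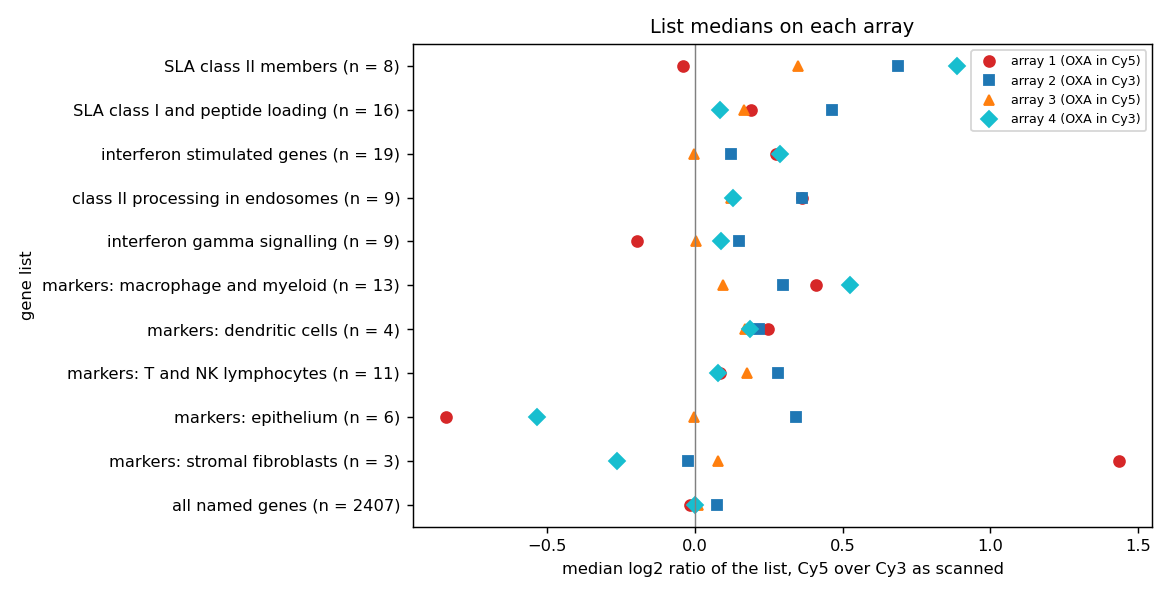
Median log2 ratio of Cy5 over Cy3 of each gene list on arrays 1 to 4, with the number of measured genes in brackets. The 8 class II genes have medians of 0.69, 0.35 and 0.89 on arrays 2, 3 and 4 and -0.04 on array 1, and all named genes lie near 0 on each array.

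Markers of cells that carry class II constitutively were measured in the same slices. Macrophage and myeloid markers had 13 measured genes of 16 with a named probe, with medians of -0.05 for OXA and 0.27 for Cy5 over Cy3. For 7 of 13, Cy5 exceeded Cy3 on 4 of 4 arrays, against 13.2% of named genes. Their summed normalised intensity was 24870 to 50100 in the OXA RNAs and 20320 to 60920 in the control RNAs. By dye it was 26560, 38570, 50100 and 60920 in Cy5 and 20320, 24870, 38430 and 33600 in Cy3 on arrays 1 to 4, higher in Cy5 on each array. AIF1, a calcium-binding protein of macrophages, and FCGR3A, an IgG Fc receptor, had Cy5 over Cy3 coefficients of 0.69 and 0.89. CD14, the lipopolysaccharide coreceptor, had 0.29, and SPI1, SIGLEC1 and FCGR1A did not pass the filter on dim spots. Dendritic cell markers had 4 measured genes, 3 of them higher in Cy5 on 4 of 4 arrays, against 13.2% of named genes. Their summed intensities were 11660 to 21360 with OXA and 9272 to 23010 without it. Only 2 of these 4 genes were well above background in all 8 readings. CCR7, the chemokine receptor of migrating dendritic cells, had a Cy5 over Cy3 coefficient of 0.54, FSCN1, an actin bundler, 0.38, and XCR1 0.04. The Cy5 over Cy3 ratios of XCR1 were 0.083, 0.039, 0.0029 and 0.019 on arrays 1 to 4, all close to 0.

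Of the B cell markers, MS4A1 was well above background in 3 of 8 readings and did not pass the filter on dim spots. BLNK and CD79A were measured, with OXA coefficients of -0.24 and -0.12, and neither was higher in Cy5 on every array. Their summed intensity was 2796 to 4564 with OXA and 3929 to 4453 without it. T and NK cell markers had 11 of 12 genes measured, with a median Cy5 over Cy3 coefficient of 0.17. Cy5 was higher on 4 of 4 arrays for 7 of 11, against 13.2% of named genes. Only 2 of the 11 were well above background in all 8 readings, so several of these ratios are of dim probes. Summed intensities were 13950 to 24000 with OXA and 13970 to 25270 without it. GZMB, a cytotoxic granule protease, had 0.53, NKG7 0.34 and CD247, the zeta chain of the T cell receptor complex, -0.01. On array 1, where the class II median was -0.04 as Cy5 over Cy3, the median of 6 epithelial markers was -0.84 and that of 3 stromal markers 1.44. The part of these cell types in the class II values was not tested.

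Among 2399 other named genes, those nearest to the class II median over the 4 arrays, by the root mean square difference of the Cy5 over Cy3 log2 ratios, were CCR1 (0.0943), CD48 (0.110), MT3 (0.132), BCL2A1 (0.178) and GBP1 (0.183). CCR1, a chemokine receptor, had Cy5 over Cy3 values of -0.04, 0.75, 0.20 and 0.79 on arrays 1 to 4. CD48, an adhesion molecule of leukocytes, had -0.11, 0.56, 0.44 and 0.75. MT3 encodes a metallothionein, BCL2A1 an inhibitor of apoptosis, and GBP1 an interferon-induced GTPase. This order describes likeness over 4 arrays of which 3 share a slide. B2M stood at rank 14 and SLA-3 at rank 18 of the same order.

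The sign of the class II median turned under 2 alternatives. Over 13 alternatives other than leaving out an array (counting the deposited table apart from Agilent's log ratio, although both coincide for these genes), the median OXA coefficient of the 8 genes ran from -0.39 to 0.45, and it was below 0 in 11 of them. Changing the filter on dim spots, the dye term, the array weights or eBayes gave the main median of -0.31 again. These alternatives use the same ratios of the same probes, so they could not turn the sign. With median centring the OXA coefficients were 0.24 for SLA-DRB1, 0.09 for CD74 and 0.05 for SLA-DOA, and SLA-DRA and SLA-DQA1 alone were below 0. Relative to the median of all probes in the same processing, the class II median was -0.33 with loess and -0.13 with median centring. With OXA read as Cy5 on every array, the values were 0.34 for SLA-DRA, 0.68 for SLA-DRB1, 0.71 for SLA-DMA and 0.03 for SLA-DOA, with adjusted p values of 0.905 or above in limma. Leaving out each array in turn moved the class II median between -0.37 and -0.19.

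**Figure D5:**
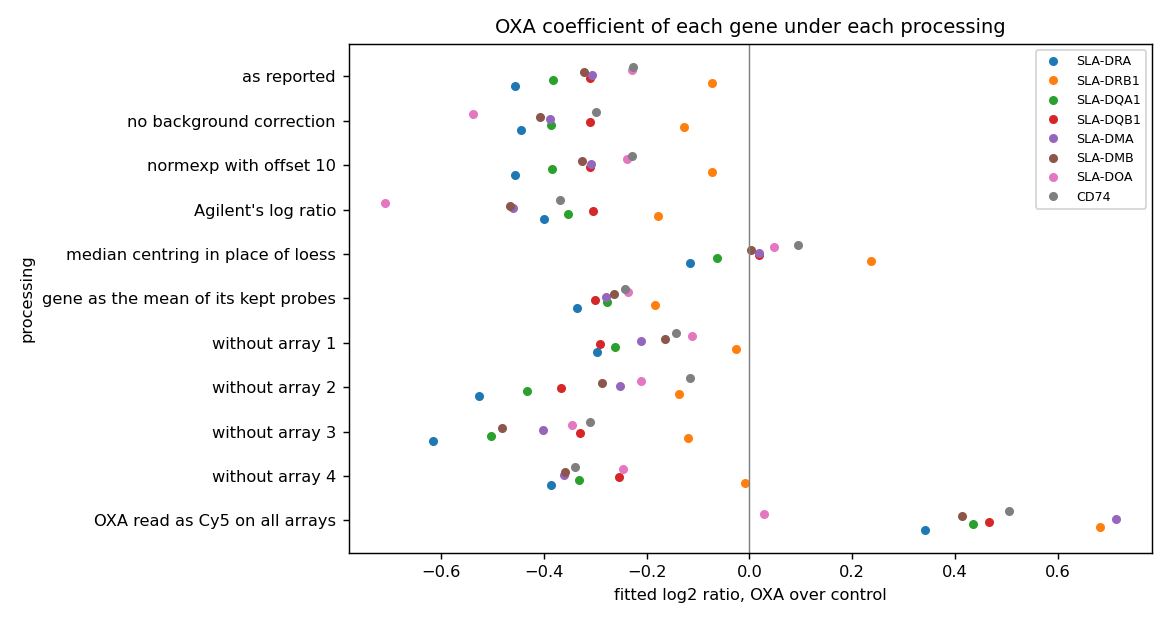
Fitted OXA over control log2 ratio of each class II gene (colours) under each processing, with the values as reported in the top line. The 8 genes lie below 0 in each line except median centring, where 6 lie above 0, and the reading of OXA as Cy5 on all arrays, where 8 do.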

How the data were processed

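Gene expression was measured in slices of pig endometrium on 4 Agilent 2-colour arrays, each with 1 OXA-treated and 1 untreated RNA. The deposited scanner files hold the median intensity of each spot and its background in both dyes, and a log10 Cy5 to Cy3 ratio. Per the file headers, Agilent Feature Extraction 10.7.3.1 subtracted background and normalized the dyes for that ratio. The authors' deposited value table holds log2 ratios; against the scanner ratios over 43420 probes its slopes were 1.06, -1.00, 1.04 and -1.03 on arrays 1 to 4 (correlations 0.888, -0.970, 0.689 and -0.802), which gives the scale and the direction OXA over control. After turning the sign by dye, 68.9%, 83.4%, 79.2% and 81.9% of probes were equal in both within 0.001. All 8 class II genes had equal values in both on all 4 arrays, to 4 digits. Column medians were -0.17, 0.06, -0.06 and 0.09, and how the other probes were made stays unknown. The aligner or probe annotation and the genome build are not given in the sources used here, so no coordinates are printed.

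From the median intensities, background was corrected with normexp (offset 50) and each array was normalized by loess. Control and outlier spots were left out (135 probes lost), and probes well above background in at least 4 of 8 readings were kept. limma 3.58.1 under R 4.3.3 fitted a coefficient for OXA (+1 in Cy5 and -1 in Cy3) and a Cy5 over Cy3 coefficient, with eBayes and Benjamini-Hochberg adjustment over 26927 probes, leaving 2 residual degrees of freedom and 3.88 after moderation. Levels are normalised log2 intensities after Aquantile scaling. A gene is its kept probe of highest mean brightness. Of 7125 probes with a RefSeq accession, 6700 were named, which gave 3029 genes, 2407 of them tested. The p-values measure the spread between arrays of 1 dye orientation, and nothing says whether that spread is of animals, slices or handling. In a test on simulated data, 200 of 26927 probes were changed by a log2 value of 1, and 45% of them passed an adjusted p of 0.05 for OXA, as did 0.00374% of the rest. The simulated noise was independent between probes, whereas the real arrays correlated across probes, so both shares may differ in the real data. That change is larger in size than every class II OXA coefficient (lowest -0.46), so the 45% does not apply to changes of their size.

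The members and gene lists were chosen with earlier results of these data known. The naming rule took all members, up to 4 genes of each pathway list by lowest unadjusted p for OXA, up to 3 of each immune marker list by brightness, and the 5 genes most like the class II median; SLA-DOB, IFNG, KRT8, EPCAM, DCN, LUM and the unmeasured markers were named after their values were seen. Values of some genes that the rule would name are not reported here. Other lists held endothelial (4 measured genes, median OXA coefficient -0.20), smooth muscle (3, -0.15), trophectoderm (3, -0.10) and red blood cell markers (0 with a named probe). Alternatives covered background correction, normalization, the filter, the dye term and labels, the slide, weights, eBayes and each array.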

Additional observations from a re-analysis of the deposited data

How the results depend on the processing

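Centring each array on its median instead of loess gave a class II median of 0.018 for OXA and 1.83 for Cy5 over Cy3. The medians over all probes were then 0.14 and 0.32. Cy5 exceeded Cy3 on every array for 8 of 8 genes. Of all 26927 probes, 8221 passed an adjusted p of 0.05 for Cy5 over Cy3 in limma, in either direction. OXA coefficients then turned to 0.24 (SLA-DRB1), 0.0183 (SLA-DQB1), 0.018 (SLA-DMA), 0.0030 (SLA-DMB), 0.048 (SLA-DOA) and 0.094 (CD74), and all 8 genes passed for Cy5 over Cy3, with coefficients from 0.58 to 1.93 and adjusted p values from 0.0199 to 0.0381. Reading OXA as Cy5 throughout gave a median of 0.45 and 0.34 (SLA-DRA), 0.68 (SLA-DRB1), 0.43 (SLA-DQA1), 0.47 (SLA-DQB1), 0.71 (SLA-DMA), 0.41 (SLA-DMB), 0.028 (SLA-DOA) and 0.51 (CD74); that reading is the Cy5 over Cy3 mean by construction. With the gene as the mean of its probes, Cy5 exceeded Cy3 on every array for 2 of 8 genes. With trend and robust eBayes, 3 probes passed an adjusted p of 0.05 for OXA, none of them a member's. Leaving out 1 array in turn gave 0 to 6 probes past it for OXA and 0 to 7 for Cy5 over Cy3 (6 and 7 without array 4), a class II median of -0.37 to -0.19 for OXA and 0.37 to 0.56 for Cy5 over Cy3, and 4 to 8 genes with Cy5 above Cy3 on each array kept (8 without array 1). The Cy5 over Cy3 coefficient of SLA-DOA ran from -0.089 (without array 3) to 0.145 (without array 1). The cause of these changes was not tested. The slide as a block equals leaving out array 1. No paired analysis was possible because the series has 1 group of arrays, each holding both RNAs, so the pairing within an array is already in every ratio. In the other comparisons of a main value with an alternative, 62 medians and counts were scored as unchanged, as were 225 values of single genes. A median was so scored if its sign held and it moved by less than the SD of the array medians. A count was so scored if it was equal to the main count or within a fixed factor of it. A value of a single gene had to keep its direction and its side of the threshold. Several alternatives reuse the same ratios, so these are not independent checks. The search for promoter motifs was not run. The dimmest probes of SLA-DQB1 and SLA-DMB were well above background in 7 of 8 readings, and the other member probes in all 8.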

Other observations

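Among the interferon-stimulated genes, CXCL9, a chemokine induced by interferon gamma that draws T cells, was split by dye; it was picked out after its values were seen. Its log2 ratios of OXA over control were 1.47, -1.56, 1.67 and -1.16 on arrays 1 to 4, so that Cy5 exceeded Cy3 on 4 of 4 arrays. The OXA coefficient of CXCL9 was 0.10 and its Cy5 over Cy3 coefficient 1.46, with an unadjusted p of 0.000132 and an adjusted p of 0.932 in limma.

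Among myeloid markers, also picked out after their values were seen, S100A8, a calcium-binding protein of neutrophils and monocytes, had Cy5 over Cy3 and OXA coefficients of 0.99 and -0.46, and TYROBP, a signalling adaptor, 0.74 and -0.04. Neither passed an adjusted p of 0.05 for either coefficient in limma.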
